A study of Homo sapiens with 4 samples.

Results

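The first day of transforming growth factor β1 (TGF-β1) treatment was examined in OVCA420 cells by setting the 1-day library against the untreated library (Ctrl). Members were all cells of these libraries in which over 200 genes were detected and mitochondrial genes took no more than 20% of unique molecular identifiers (UMIs). These were 933 of the 941 Ctrl cells and 937 of the 945 1-day cells that were read, or 1870 of the 3144 retained cells of the series. OVCA420 is an established epithelial ovarian cancer cell line, and single-cell suspensions were made from the cultures with trypsin. Ctrl cells were left untreated, 1-day cells received 10 ng/mL TGF-β1 for 1 day, and 3-day and 7-day libraries of the same time course are used here only to place levels beside those at 1-day. The labels name no other agent and no genetic change, and each condition was 1 library of 1 cell line. Together the Ctrl cells held 29995994 UMIs (median 30270 per cell) and the 1-day cells 32949874 (median 32393). The cell lists name 3372 Ctrl and 2601 1-day barcodes, so the sums describe part of each library. Of the barcodes read, 7 occurred in both libraries.

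With 1 library per side there is no replicate check, and every difference below is a difference between these 2 libraries. Levels are CPM, a gene's UMIs in all retained cells of a library scaled to an equal total in each library, and log2 ratios of 1-day to Ctrl have exact conditional 95% intervals that cover counting error only. A gene was called higher or lower when its log2 ratio reached 1 or -1, among genes with a mean of at least 5 CPM over both libraries. Since CPM are shares of a library's UMIs, a difference in total RNA per cell is not seen in them. Genes below that mean were given values but were not counted, and a gene can pass it through the library in which it is high. A gene far below it in Ctrl is counted only if it is higher at 1-day, so such calls follow in part from the filter.

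The cells carried epithelial markers in both libraries. *EPCAM*, an epithelial adhesion molecule, had 331 CPM in Ctrl and 357 at 1-day, and *KRT8* and *KRT18*, which form the keratin filaments of simple epithelia, had 1075 and 841 CPM in Ctrl. The labelled origin was not matched by its lineage markers, because *PAX8*, *MUC16* and *WFDC2* summed with *WT1* to 3.4 CPM in Ctrl and 0.728 at 1-day, and *WT1* had 0 UMIs in both. Markers of immune, fibroblast, endothelial and erythroid cells summed to between 0.0303 and 5.4 CPM per list and library. The upper end was the endothelial list in Ctrl, where *CDH5* had 5.37 CPM, against 0.395 CPM at 1-day. All cells were labelled as OVCA420, so no other labelled cell type gives a background share for detection per cell.

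TGF-β1 binds a type II receptor, which activates a type I receptor, and the activated complex phosphorylates SMAD2 and SMAD3. These enter the nucleus with SMAD4 and act with partner transcription factors, and inhibitory SMADs and ubiquitin ligases among the induced genes limit the signal. In epithelial cells the pathway is known for arrest of growth in G1, deposition of matrix and epithelial-mesenchymal transition (EMT), in which cells lose junctions and gain mesenchymal features.

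Of 9570 genes counted, 816 (8.53%) were higher and 874 (9.13%) were lower at 1-day. At a log2 ratio of 2 or beyond, 242 genes were higher and 152 were lower, and at 3 or beyond the numbers were 79 and 26. The 816 higher genes went from 4.06% to 13.1% of all UMIs, and the 874 lower genes from 9.30% to 3.80%. The median log2 ratio of all counted genes was -0.07, and 58.0% lay within 0.5 of 0. Among genes with a mean of at least 50 CPM, 250 were higher and 156 lower. Cell cycle phase also moved, with 10.5% of Ctrl and 73.8% of 1-day cells called G1 (described below), so ratios were also taken within each called phase. The 98 Ctrl cells called G1 held 2937889 UMIs, which makes the ratios within G1 less precise. Of the 816 higher genes, 622 reached the same limit in G1 cells alone, 682 in S cells and 645 in G2M cells. Of the 874 lower genes, 577 did so in G1, 397 in S and 413 in G2M.

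**Figure D1:**
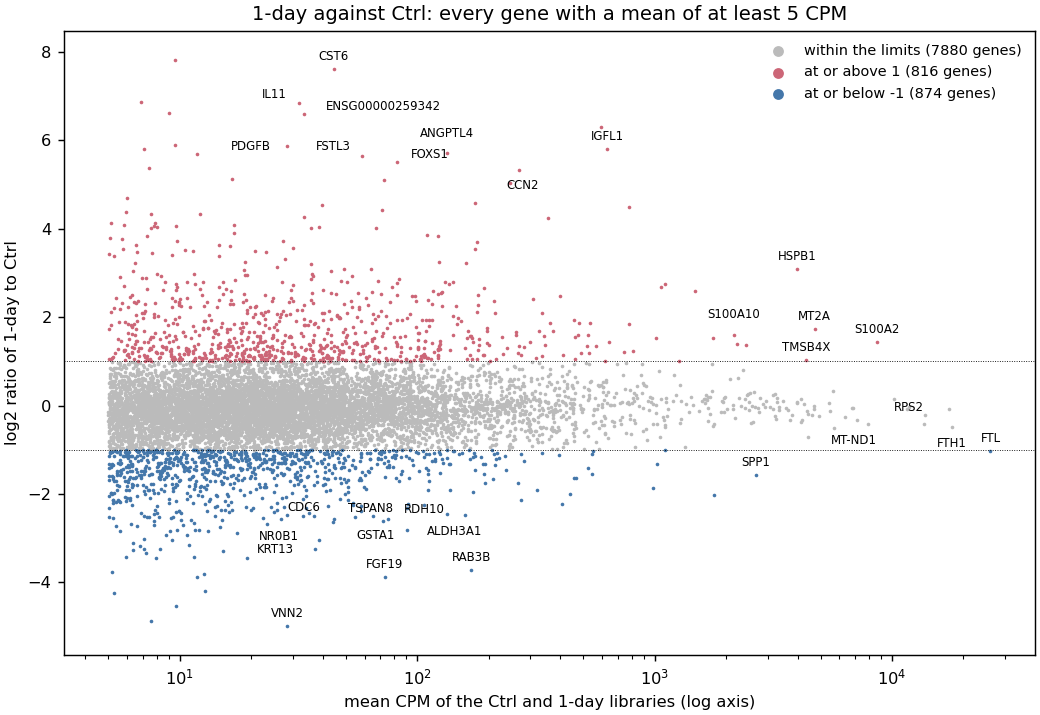
Log2 ratio of 1-day to Ctrl (y axis) against the mean CPM of both libraries (log x axis) for the 9570 counted genes, with 816 genes at or above 1 in red, 874 at or below -1 in blue and the genes named by rank labelled. The labelled genes at the top, from *CST6* to *CCN2*, all lie above 5 on the y axis, and *VNN2* lies at -5.00.

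The highest ratios among genes that reached 50 CPM in Ctrl or at 1-day belonged mostly to secreted proteins. *CST6*, which encodes the protease inhibitor cystatin M, had 0.433 CPM in Ctrl and 88.5 at 1-day (log2 ratio 7.62, 95% interval 6.90 to 8.59), and was later at 51.3 CPM at 3-day and 33.2 CPM at 7-day. Only 13 *CST6* UMIs were counted in all Ctrl cells. *IL11*, a cytokine of the IL-6 family, had 0.533 CPM in Ctrl and 63.1 at 1-day (log2 ratio 6.84, 95% interval 6.18 to 7.70), with 135 CPM at 3-day and 103 CPM at 7-day. Unlike *CST6*, *IL11* was higher in both later libraries than at 1-day. *PDGFB*, a growth factor for mesenchymal cells, had 0.933 CPM in Ctrl and 55.6 at 1-day (log2 ratio 5.87). *IGFL1*, an insulin growth factor-like protein, had 22.2 CPM in Ctrl and 1239.8 at 1-day (log2 ratio 5.80). It was uneven among Ctrl cells, where 10 cells held 74.7% of its UMIs, with 126 CPM in G1 and 9.36 CPM in S cells. *ANGPTL4*, an inhibitor of lipoprotein lipase, had 5 CPM in Ctrl and 263 at 1-day (log2 ratio 5.71), and *FSTL3*, an extracellular binder of activin, had 2.27 CPM in Ctrl and 115 at 1-day (log2 ratio 5.65). *FOXS1*, a forkhead transcription factor, had 3.5 CPM in Ctrl and 161 at 1-day (log2 ratio 5.52), and the matricellular gene *CCN2*, named *CTGF* in the files, had 12.9 CPM in Ctrl and 522 at 1-day (log2 ratio 5.34). The long noncoding RNA ENSG00000259342, named *RP11-519G16.5* in the files, also belonged to this group and had 0.667 CPM in Ctrl and 66.3 at 1-day (log2 ratio 6.60). Within G1 cells the ratios of most of these genes were smaller, but several rested on few Ctrl UMIs and had wide intervals. The log2 ratio in G1 was 4.58 for *ANGPTL4* (95% interval 4.13 to 5.13) and 3.44 for *IGFL1* (3.30 to 3.60), while that of *CCN2* was 5.48. The narrow interval of *IGFL1* covers counting error only and leaves out its unevenness among Ctrl cells. That of *CST6* was 6.10, with an interval of 4.77 to 8.60 that holds its ratio over all cells.

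The lowest ratios included enzymes of detoxification and genes of differentiated epithelia. *VNN2*, which encodes a pantetheinase anchored at the cell surface, had 54.8 CPM in Ctrl and 1.7 at 1-day (log2 ratio -5.00, 95% interval -5.42 to -4.63), and 0.685 CPM at 3-day and 1.34 CPM at 7-day. *FGF19*, an endocrine fibroblast growth factor, had 137 CPM in Ctrl and 9.23 at 1-day (log2 ratio -3.89, 95% interval -4.06 to -3.72), with 10.3 CPM at 3-day and 12.8 CPM at 7-day. *RAB3B*, a small GTPase of vesicle exocytosis, had 314 CPM in Ctrl and 23.7 at 1-day (log2 ratio -3.73, 95% interval -3.84 to -3.62), and 60.6 CPM at 3-day and 100.3 CPM at 7-day. *VNN2* and *FGF19* stayed low at the later times, and *RAB3B* was between its Ctrl and 1-day levels at 3-day and 7-day. *KRT13*, a keratin of stratified mucosa, had 67 CPM in Ctrl and 7.04 at 1-day (log2 ratio -3.25), and the orphan nuclear receptor gene *NR0B1* had 68.7 CPM in Ctrl and 8.38 at 1-day (log2 ratio -3.03). *ALDH3A1*, an aldehyde dehydrogenase, had 159 CPM in Ctrl and 22.6 at 1-day (log2 ratio -2.82), and *GSTA1*, a glutathione transferase, had 123 CPM in Ctrl and 19.97 at 1-day (log2 ratio -2.62). *TSPAN8*, a tetraspanin of epithelial cells, had 76.4 CPM in Ctrl and 12.8 at 1-day (log2 ratio -2.57), and *RDH10*, a retinol dehydrogenase, had 129 CPM in Ctrl and 21.9 at 1-day (log2 ratio -2.56). The licensing factor gene *CDC6* had 76.2 CPM in Ctrl and 12.2 at 1-day (log2 ratio -2.64), but only -0.51 within S cells. *CDC6* is itself among the genes that call S, so its value within S partly follows from the call. *GSTA1* and *TSPAN8* went lower still, to 0.67 and 3.35 CPM at 7-day, whereas *CDC6* was back at 68.5 CPM.

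**Figure D2:**
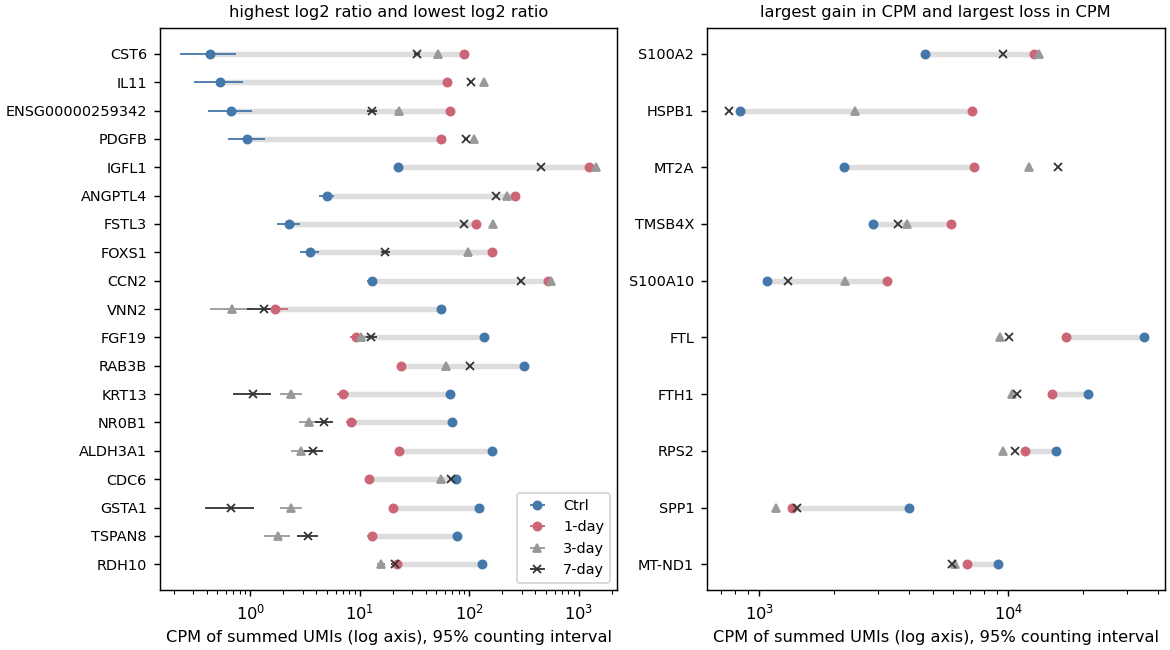
CPM of summed UMIs on a log axis in the Ctrl (blue), 1-day (red), 3-day (triangles) and 7-day (crosses) libraries, with exact 95% counting intervals as bars and a grey line joining Ctrl and 1-day. The left panel shows the named genes at each end of the log2 ratios, and the right panel the 5 largest gains and losses of CPM, where *HSPB1* went from 834 to 7132 CPM and returned to 756 CPM at 7-day.

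The sequences upstream of 4 of the highest and 4 of the lowest of these genes, taken in rank order among those with a usable RefSeq promoter entry, are given to show what lies before the genes that moved most. No entry was used for *CST6*, ENSG00000259342, *PDGFB*, *FGF19*, *KRT13* or *ALDH3A1*. Each is the 250 bases before the annotated start in GRCh38.p14, on the strand of the gene. Both strands were searched for GTCTAGAC and CAGAC (bound by SMAD3 and SMAD4), TGANTCA (bound by AP-1), CACCTG (the E-box bound by SNAI and ZEB factors) and TGACNNNGC (bound by NRF2), and capitals mark the matches. The motif TGANTCA can overlap with TGACNNNGC, but no overlap arose here. The 4 higher genes shown lie on chromosome 19.
IL11, chr19:55370464-55370713, minus strand: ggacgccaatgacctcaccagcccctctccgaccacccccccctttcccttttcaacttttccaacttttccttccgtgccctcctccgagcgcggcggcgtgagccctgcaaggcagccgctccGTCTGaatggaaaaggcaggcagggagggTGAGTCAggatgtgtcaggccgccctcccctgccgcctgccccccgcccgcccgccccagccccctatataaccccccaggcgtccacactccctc
IGFL1, chr19:46229492-46229741, plus strand: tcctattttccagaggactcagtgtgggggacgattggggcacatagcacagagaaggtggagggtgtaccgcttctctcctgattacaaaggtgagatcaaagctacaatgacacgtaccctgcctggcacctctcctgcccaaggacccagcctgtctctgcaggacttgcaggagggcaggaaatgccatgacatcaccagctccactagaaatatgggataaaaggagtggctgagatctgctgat
ANGPTL4, chr19:8363905-8364154, plus strand: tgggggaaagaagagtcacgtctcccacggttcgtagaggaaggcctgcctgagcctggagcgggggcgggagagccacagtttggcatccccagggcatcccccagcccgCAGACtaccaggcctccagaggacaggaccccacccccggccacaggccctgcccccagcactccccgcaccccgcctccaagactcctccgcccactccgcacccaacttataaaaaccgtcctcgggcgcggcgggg
FSTL3, chr19:676142-676391, plus strand: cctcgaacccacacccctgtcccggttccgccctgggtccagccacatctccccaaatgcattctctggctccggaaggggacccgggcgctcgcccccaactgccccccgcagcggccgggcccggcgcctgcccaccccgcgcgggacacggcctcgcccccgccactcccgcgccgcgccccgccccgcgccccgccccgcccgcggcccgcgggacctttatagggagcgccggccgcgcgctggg
VNN2, chr6:132763456-132763705, minus strand: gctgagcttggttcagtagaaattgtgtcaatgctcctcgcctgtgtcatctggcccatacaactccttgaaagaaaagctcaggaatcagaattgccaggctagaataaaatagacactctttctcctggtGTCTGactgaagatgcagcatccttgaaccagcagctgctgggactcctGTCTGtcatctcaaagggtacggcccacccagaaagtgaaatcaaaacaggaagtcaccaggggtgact
RAB3B, chr1:51990701-51990950, minus strand: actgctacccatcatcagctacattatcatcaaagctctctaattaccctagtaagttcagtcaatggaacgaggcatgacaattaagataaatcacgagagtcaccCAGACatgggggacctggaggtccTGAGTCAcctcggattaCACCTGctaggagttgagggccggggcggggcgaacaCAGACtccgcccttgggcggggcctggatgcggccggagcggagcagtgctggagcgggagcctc
NR0B1, chrX:30309391-30309640, minus strand: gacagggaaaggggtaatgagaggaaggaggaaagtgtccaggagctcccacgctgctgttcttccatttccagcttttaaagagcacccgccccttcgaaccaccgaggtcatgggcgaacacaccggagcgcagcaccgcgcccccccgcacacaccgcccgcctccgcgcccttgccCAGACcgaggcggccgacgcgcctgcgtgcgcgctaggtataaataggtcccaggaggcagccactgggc
CDC6, chr17:40287629-40287878, plus strand: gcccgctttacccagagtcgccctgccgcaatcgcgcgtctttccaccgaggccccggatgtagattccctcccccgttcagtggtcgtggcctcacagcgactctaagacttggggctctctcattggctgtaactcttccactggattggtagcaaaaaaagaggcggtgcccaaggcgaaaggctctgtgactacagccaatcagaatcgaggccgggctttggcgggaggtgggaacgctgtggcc

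Of the 4 promoters of higher genes, that of *IL11* held 1 TGANTCA and 1 CAGAC match and that of *ANGPTL4* 1 CAGAC match, and those of *IGFL1* and *FSTL3* held no match. Of the 4 promoters of lower genes, that of *RAB3B* held 2 CAGAC, 1 TGANTCA and 1 CACCTG match, that of *VNN2* 2 CAGAC matches and that of *NR0B1* 1. Among 27305 promoter windows of the same length, CAGAC was present in 37.8%, TGANTCA in 6.60%, CACCTG in 17.5%, TGACNNNGC in 11% and GTCTAGAC in 0.176%. A match is a match of letters and was not tested for binding.

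Measured in CPM rather than in ratios, the largest gains fell on a few abundant messages. *S100A2*, a calcium-binding protein of stratified epithelia, had 4632 CPM in Ctrl and 12629 at 1-day, and *HSPB1*, the small heat shock protein that also binds actin, had 834 CPM in Ctrl and 7132 at 1-day. *MT2A*, a metal-binding metallothionein, had 2188 CPM in Ctrl and 7249.6 at 1-day, and *TMSB4X*, which encodes the actin monomer-binding thymosin β4, had 2865 CPM in Ctrl and 5856 at 1-day. *S100A10*, a partner of annexin A2, had 1069 CPM in Ctrl and 3258 at 1-day. Under CPM without mitochondrial and ribosomal protein UMIs *TMSB4X* fell short of a log2 ratio of 1, as it did within S and G2M. *HSPB1* exceeded the 95th percentile of Ctrl cells in 95.1% of 1-day cells after each cell was thinned to 18000 UMIs, and *S100A10* did so in 86.3%. The shares were smaller for *S100A2* (57.7%), *MT2A* (57.8%) and *TMSB4X* (59.9%). *HSPB1* and *S100A10* were highest at 1-day among the 4 libraries, with 756 and 1298 CPM at 7-day, whereas *MT2A* was higher at each later time. The largest losses were in *FTL* and *FTH1*, the light and heavy chains of the iron store ferritin. *FTL* had 34935 CPM in Ctrl and 17046 at 1-day (log2 ratio -1.04, 95% interval -1.04 to -1.03), a call that was lost under median-of-ratios scaling, and 54.3% of 1-day cells lay below the 5th percentile of Ctrl cells. *FTH1* had 20858 CPM in Ctrl and 14956 at 1-day (log2 ratio -0.48), and the ribosomal protein gene *RPS2* had 15514 CPM in Ctrl and 11669 at 1-day (log2 ratio -0.41). *SPP1*, which encodes the secreted phosphoprotein osteopontin, had 4002 CPM in Ctrl and 1350.4 at 1-day (log2 ratio -1.57), with 73.4% of 1-day cells below the 5th percentile of Ctrl. The mitochondrial gene *MT-ND1* had 9061 CPM in Ctrl and 6821 at 1-day. Mitochondrial genes together went from 8.36% to 7.62% of UMIs.

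Genes of the TGF-β pathway itself differed widely. Of 18 ligand and receptor genes 9 were counted, and 7 were higher and 0 lower (median log2 ratio 1.94), where 8.53% of all counted genes were higher, 9.13% lower and the median -0.07. The receptor genes *TGFBR1* (16.6 to 81.7 CPM, log2 ratio 2.29) and *TGFBR2* (16.5 to 63.6 CPM, log2 ratio 1.94) were higher, and so were *ACVR1* (18.5 to 74.7 CPM) and *BMPR2* (8.53 to 62.7 CPM), receptors that also serve activins and bone morphogenetic proteins (BMPs). The ligand gene *TGFB1* went from 87.4 to 252 CPM (log2 ratio 1.53), and *LTBP2* and *LTBP3*, whose products bind latent TGF-β or the matrix that stores it, from 0.533 to 11.4 CPM and from 9.73 to 23.9 CPM. All 7 also reached a log2 ratio of 1 within each called phase. The tally depends on the mean level for counting, which *LTBP2* passed only through its 1-day level. *TGFBR3*, a co-receptor that presents the ligand, was below that level and so is not in the tally. It had 8.97 CPM in Ctrl and 0.607 at 1-day (log2 ratio -3.85). *ACVR1B* and *BMPR1A* differed by log2 ratios of -0.08 and 0.22.

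Of 13 SMAD and feedback genes 12 were counted, and 6 were higher and 0 lower (median 0.95). Over all counted genes 8.53% were higher and 9.13% lower. The SMAD and feedback genes that were higher encode inhibitors and modifiers of the signal. *PMEPA1*, which sequesters receptor-activated SMADs, had 66.8 CPM in Ctrl and 1501 at 1-day (log2 ratio 4.49, 95% interval 4.43 to 4.56), and *SMAD7*, the inhibitory SMAD, had 4.33 CPM in Ctrl and 27 at 1-day (log2 ratio 2.64). *SKIL*, a SMAD corepressor, had 37 CPM in Ctrl and 215 at 1-day (log2 ratio 2.54), and *SMURF2*, a ubiquitin ligase for receptors and SMADs, had 22.9 CPM in Ctrl and 75.9 at 1-day (log2 ratio 1.73). *SMAD6* and *TGIF1* had log2 ratios of 1.19 and 1.03, the latter below 1 in every phase (0.99 in G1, 0.93 in S and 0.80 in G2M) and without mitochondrial and ribosomal protein UMIs. The transducers *SMAD2*, *SMAD3* and *SMAD4* had log2 ratios of 0.17, 0.53 and 0.29, and the pseudoreceptor *BAMBI* -0.53. *PMEPA1* was detected in 38.9% of thinned Ctrl cells and 99.2% of thinned 1-day cells (47.5% and 99.5% without thinning). The inhibitors of differentiation ID1 to ID4 are targets of the BMP branch. Of 4 genes 3 were counted, and *ID1* (270.4 to 108 CPM, log2 ratio -1.32) and *ID3* (46 to 16.2 CPM, log2 ratio -1.50) were lower, while *ID2* had 144 CPM in Ctrl and 136 at 1-day. The log2 ratio of *ID3* was -0.79 in G1 cells, and that of *ID1* -0.79 in G2M cells. *ID4* was below the level for counting (8.07 to 0.971 CPM).

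The distribution over cells showed whether these differences were spread over the library or carried by few cells. The 13 SMAD and feedback genes had a median sum of 7 UMIs per 18000 in Ctrl cells and 40 in 1-day cells. Of 900 thinned 1-day cells, 0 were at or below the Ctrl median, which allows a share of up to 0.409% (exact binomial 95% bound), and 96.6% exceeded the 95th percentile of Ctrl cells. Conversely, 20 of 844 thinned Ctrl cells (2.37%) reached the level that 95% of 1-day cells reached or passed. For the actin genes described below 3 1-day cells and for the plasminogen genes 52 (5.78%) were at or below the Ctrl median. At 1-day the SMAD and plasminogen sums were carried largely by single genes. *PMEPA1* went from 66.8 to 1501 CPM of a SMAD and feedback sum of 436 to 2228 CPM, and *SERPINE2* from 35.5 to 677 CPM of a plasminogen sum of 62.1 to 703 CPM. On the measure from the Ctrl side, 61 of the 844 Ctrl cells (7.23%) reached the level of 95% of 1-day cells for the actin list, 220 (26.1%) for the matricellular list and 443 (52.5%) for the plasminogen list. For the plasminogen list that level was only 1 UMI, which was also the Ctrl median, while the 1-day median was 10 UMIs.

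**Figure D3:**
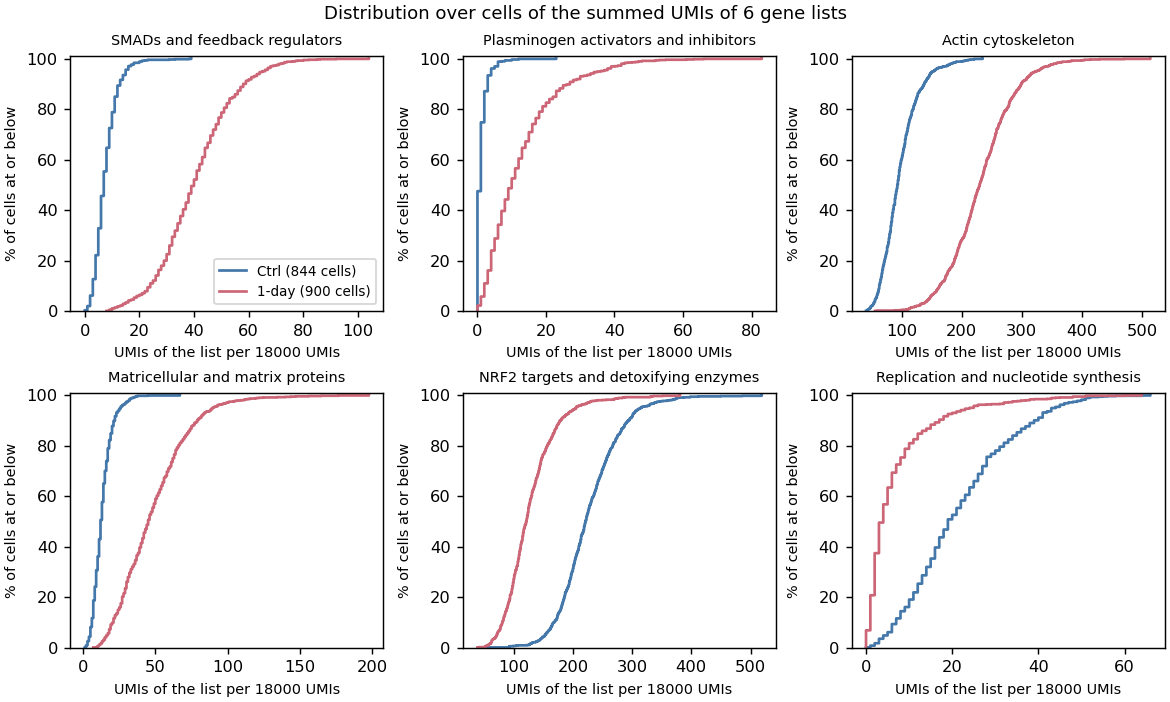
Cumulative share of cells (y axis, %) at or below a summed number of UMIs of a gene list per 18000 UMIs of the cell (x axis) for 844 Ctrl cells (blue) and 900 1-day cells (red). The curves for SMAD and feedback, plasminogen, actin and matrix genes lie to the right at 1-day, with medians of 7 and 40 for SMAD and feedback genes, and those for NRF2 and replication genes lie to the left, with medians of 221 and 121.5 for NRF2 genes.

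Called cell cycle phase differed between the libraries. By scores of the 43 S and 54 G2M genes of Seurat, 98 of 933 Ctrl cells (10.5%, exact binomial 95% interval 8.61 to 12.7%) and 691 of 937 1-day cells (73.8%, 70.8 to 76.5%) were called G1. S cells made up 57.9% of Ctrl and 9.07% of 1-day cells, and G2M cells 31.6% and 17.2%. In thinned cells the G1 shares were 10.1% and 73.3%. Phase calls compare scores and do not by themselves show cycling. The genes read one by one below include many of the scoring genes, so their levels are not a separate check of the calls.

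All 18 genes of replication and nucleotide synthesis were counted and all 18 were lower (median log2 ratio -1.73), against 9.13% of all counted genes. However, 13 of the 18 also belong to the lists that call the phases. Under median-of-ratios scaling *RRM1* and *TK1* fell short of the limit, and *RRM1* also after thinning. *CDT1*, which loads the replicative helicase, had 40.4 CPM in Ctrl and 6.25 at 1-day (log2 ratio -2.69), and *MCM2*, a subunit of that helicase, had 38.3 CPM in Ctrl and 6.59 at 1-day (log2 ratio -2.54). *RRM2*, a subunit of ribonucleotide reductase, had 151 CPM in Ctrl and 32 at 1-day (log2 ratio -2.23), and *PCNA*, the polymerase clamp, had 162 CPM in Ctrl and 59.2 at 1-day (log2 ratio -1.45). The levels were back near Ctrl at 3-day and 7-day, with 122 and 167 CPM for *RRM2* and 160.3 and 149 CPM for *PCNA*. Within S cells the list's median was -0.21 and 0 of the 18 genes were lower, within G2M cells it was -0.40, and within G1 cells it was -1.10. In S cells *PCNA*, *MCM7* and *FEN1* had log2 ratios of 0.0023, 0.05 and 0.11. Of 18 mitosis genes 9 were lower and 0 higher (median -1.02), among them *TOP2A* (695 to 223 CPM, log2 ratio -1.64), which untangles chromosomes, and *CDK1* (52 to 14.7 CPM, log2 ratio -1.82), the mitotic kinase. Within G2M cells the median of the mitosis genes was 0.11 and 0 of them were lower. Within G1 cells their median was -1.25 and 6 of the 9 stayed lower, and within S cells it was -0.37 and 0 did. Since 14 of the 18 mitosis genes and 13 of the 18 replication genes also belong to the lists that call the phases, their values within a phase partly follow from the call itself. The log2 ratios of the mitosis genes within G2M ran from -0.66 for *CDK1* to 0.72 for *CDC20*, an activator of the anaphase-promoting complex.

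Of the CDK inhibitors and cyclins, 14 of 16 were counted, with 2 higher and 7 lower. Of all counted genes 8.53% were higher and 9.13% lower. *CDKN2B*, which encodes the inhibitor p15 of CDK4 and CDK6, had 9.37 CPM in Ctrl and 77.1 at 1-day (log2 ratio 3.04, 95% interval 2.86 to 3.22), and *CDKN1A*, which encodes p21, had 46.4 CPM in Ctrl and 179 at 1-day (log2 ratio 1.94, 95% interval 1.86 to 2.03). Both were also higher within S and G2M cells, with log2 ratios of 2.58 and 2.60 for *CDKN2B* and 1.70 and 1.99 for *CDKN1A*, and within G1 they were 1.84 and 0.98. The lower genes included *CDK4* (237 to 105 CPM, log2 ratio -1.17), the transcription factor *E2F1* (56.1 to 9.98 CPM, log2 ratio -2.49), the cyclins *CCNE1* and *CCNE2* and the phosphatase *CDC25A*. *CDKN1B*, which encodes p27, was also lower (22 to 9.38 CPM, log2 ratio -1.23). *CDK4* was short of the limit in every phase (-0.91 in G1, -0.67 in S and -0.68 in G2M), *CDKN1B* in G1 and G2M (-0.98 and -0.59) and *E2F1* in S and G2M (-0.22 and -0.88). *CCNE1* and *CDK2*, the latter also lower over all cells, were short of it in every phase as well, and *CCNE2* and *CDC25A* in S. Within S cells *CCNE1*, *CDC25A* and *CDK2* had log2 ratios of 0.09, 0.21 and 0.07. *CCND1*, which encodes cyclin D1, had 205 CPM in Ctrl and 405 at 1-day (log2 ratio 0.98), just inside the limit, and *MYC* had 77.1 CPM in Ctrl and 74.5 at 1-day (log2 ratio -0.05).

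**Figure D4:**
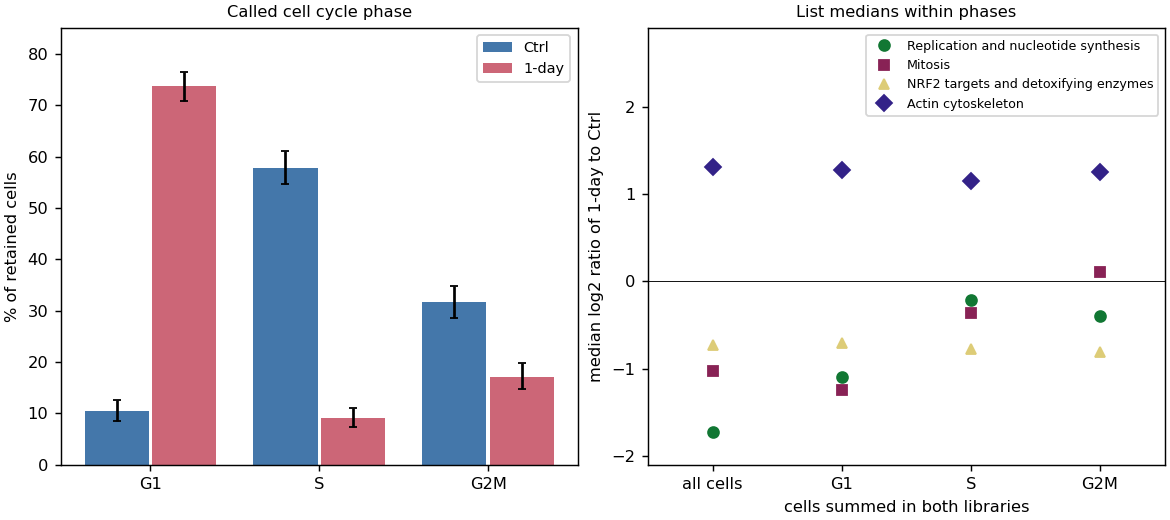
Left, share of retained cells (%) called G1, S and G2M in Ctrl (blue) and 1-day (red), with exact binomial 95% intervals. Right, median log2 ratio of 1-day to Ctrl of 4 gene lists over all cells and within each phase, where the replication median is -1.73 over all cells and -0.21 within S, and the actin median stays between 1.15 and 1.31.

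Matrix genes were mostly higher. Of 16 collagen genes 5 were counted, and 4 were higher, where 8.53% of all counted genes were higher. *COL1A1* passed the level for counting only through its 1-day level. *COL1A1*, a chain of fibrillar collagen I, had 4.1 CPM in Ctrl and 141 at 1-day (log2 ratio 5.10, 95% interval 4.85 to 5.37), but 63.1 CPM at 3-day and 14.8 CPM at 7-day. Its partner chain *COL1A2* had 0 CPM in Ctrl and 0.0303 at 1-day. *COL4A1* (7.73 to 126 CPM, log2 ratio 4.02) and *COL4A2* (24.7 to 139 CPM, log2 ratio 2.50), the main chains of basement membrane collagen, and *COL18A1* (27.7 to 66 CPM) were higher as well. *COL3A1*, *COL5A1* and *COL6A2* had 0 UMIs in both libraries, which allows up to 0.100 CPM in Ctrl and 0.0911 CPM at 1-day. Of 16 matricellular and matrix genes 11 were counted, and 7 were higher, against 8.53% of all counted genes. *TNC* passed the level for counting only through its 1-day level. *TGFBI*, an integrin ligand named for its induction by TGF-β, had 14.5 CPM in Ctrl and 476 at 1-day (log2 ratio 5.04, 95% interval 4.90 to 5.18). *CCN1*, named *CYR61* in the files, had 25.4 CPM in Ctrl and 331.6 at 1-day (log2 ratio 3.70), and *THBS1*, which can activate latent TGF-β, had 121 CPM in Ctrl and 677 at 1-day (log2 ratio 2.48). *TNC* (2.17 to 11.2 CPM), *FBLN1* (18.4 to 42.7 CPM) and *SDC4* (39.7 to 83.6 CPM), the last only over all cells and in G2M, were higher as well, *TNC* with 0.80 in G2M. *FN1*, which encodes fibronectin, was not called and had 48.1 CPM in Ctrl and 81.1 at 1-day (log2 ratio 0.75), with 256 CPM at 3-day and 232 CPM at 7-day. Of 7 counted genes of matrix crosslinking, *TGM2* (14 to 335 CPM, log2 ratio 4.58), a transglutaminase, *LOXL4* (11.2 to 68.9 CPM, log2 ratio 2.61), a lysyl oxidase, and *P4HA2* (5.6 to 21.5 CPM, log2 ratio 1.93), a prolyl hydroxylase, were higher.

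In the plasminogen system an inhibitor was higher and an activator lower. The inhibitor *SERPINE2* had 35.5 CPM in Ctrl and 677 at 1-day (log2 ratio 4.25, 95% interval 4.16 to 4.34). The activator *PLAT* was lower, at 11.5 CPM in Ctrl and 1.18 at 1-day (log2 ratio -3.27, 95% interval -3.80 to -2.80). The activator *PLAU* had 6.4 CPM in Ctrl and 8.5 at 1-day (log2 ratio 0.41) and its receptor *PLAUR* had 8.27 CPM in Ctrl and 15.8 at 1-day (log2 ratio 0.93), neither of which was called, and both were higher later, *PLAU* at 45.9 CPM at 3-day and 149 CPM at 7-day. In G1 cells *PLAU* and *PLAUR* had log2 ratios of -1.48 and -0.72, and the median of the 4 counted genes was 0.67 over all cells and -1.10 in G1. Of 4 counted genes of metalloproteinases and their inhibitors, *MMP14*, *TIMP1* and *TIMP2* were higher by log2 ratios of 1.28, 1.05 and 1.12. Over all counted genes 8.53% were higher and 9.13% lower. Within G1 or G2M 0 of the 3 reached 1. *TIMP1* also fell short after thinning and *TIMP2* as a mean over cells. *MMP2*, a gelatinase, had 0 UMIs in Ctrl and 7.8 CPM at 1-day, then 72.1 CPM at 3-day and 95.9 CPM at 7-day, and was below the level for counting.

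Genes of adhesion to the matrix were higher for the laminin of epithelial basement membranes and its receptors. All 8 genes of the list for this laminin and of the hemidesmosome, the junction that anchors cells to it, were counted, 4 were higher and 0 lower (median 1.24). Its chains *LAMA3* (7.8 to 52 CPM, log2 ratio 2.74) and *LAMB3* (61.8 to 298 CPM, log2 ratio 2.27) were higher, together with *ITGB4* (128 to 544 CPM, log2 ratio 2.08), the integrin chain that binds it, and the tetraspanin *CD151* (115 to 339 CPM). In G1 cells the log2 ratio of *LAMB3* was 1.49, while *ITGB4* kept 2.15. *ITGB4* was lower later, at 326 CPM at 3-day and 265 CPM at 7-day. Of 7 counted integrins 5 were higher and 0 lower. For both lists, the shares over all counted genes were 8.53% higher and 9.13% lower. *ITGA2* (36.7 to 219 CPM, log2 ratio 2.58) is a collagen receptor chain, *ITGB6* (29 to 161 CPM, log2 ratio 2.48) and *ITGAV* (45.1 to 174 CPM, log2 ratio 1.94) form a receptor that can activate latent TGF-β, and *ITGB1* (320.4 to 817 CPM, log2 ratio 1.35) is the shared β chain. *ITGA3* reached 1.01 over all cells and 0.58 in G1, and fell short of 1 without mitochondrial and ribosomal protein UMIs.

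Genes of the actin cytoskeleton were higher in large part. Of 23 genes 18 were counted, 12 were higher and 0 lower (median 1.31), where 8.53% of all counted genes were higher and 9.13% lower. The summed level went from 5487 to 12892 CPM. *TPM1*, a tropomyosin of stress fibers, had 284 CPM in Ctrl and 1919.6 at 1-day (log2 ratio 2.76, 95% interval 2.72 to 2.79), *ACTN1*, an actin crosslinker at adhesions, had 54.4 CPM in Ctrl and 308 at 1-day (log2 ratio 2.50), and *PDLIM7*, a LIM protein bound to them, had 20.1 CPM in Ctrl and 93.9 at 1-day (log2 ratio 2.22). *FLNA* (178 to 571 CPM), *CALD1* (153 to 497 CPM), *CNN3* (157 to 571 CPM) and *ACTB* (1357 to 3488 CPM) were also higher. *TPM3* and *ACTN4* had log2 ratios of -0.03 and 0.42. In G1 cells 10 of the 12 higher genes stayed past the limit, and *ZYX* and *TPM4* did not (0.84 and 0.93). The smooth muscle markers *TAGLN*, *MYL9* and *CNN1* had at most 2.46 CPM at 1-day. YAP and TAZ are cofactors of TEAD factors that respond to tension. Of 9 counted genes of that list 6 were higher, with *CCN2* and *CCN1* above, *ANKRD1* (0.867 to 14.8 CPM, log2 ratio 4.06), *AMOTL2* (9.23 to 34 CPM, log2 ratio 1.88) and *LATS2* (8.4 to 21.2 CPM, log2 ratio 1.33) as known targets and the factor *TEAD1* (12.1 to 24.4 CPM, log2 ratio 1.01), whose call was lost without mitochondrial and ribosomal protein UMIs, at the 10% mitochondrial limit and in S. *LATS2* had 0.92 in G1 and 0.71 in G2M. *ANKRD1* passed the level for counting only through its 1-day level. *YAP1* and *WWTR1*, which encode the cofactors, had log2 ratios of 0.67 and 0.37.

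**Figure D5:**
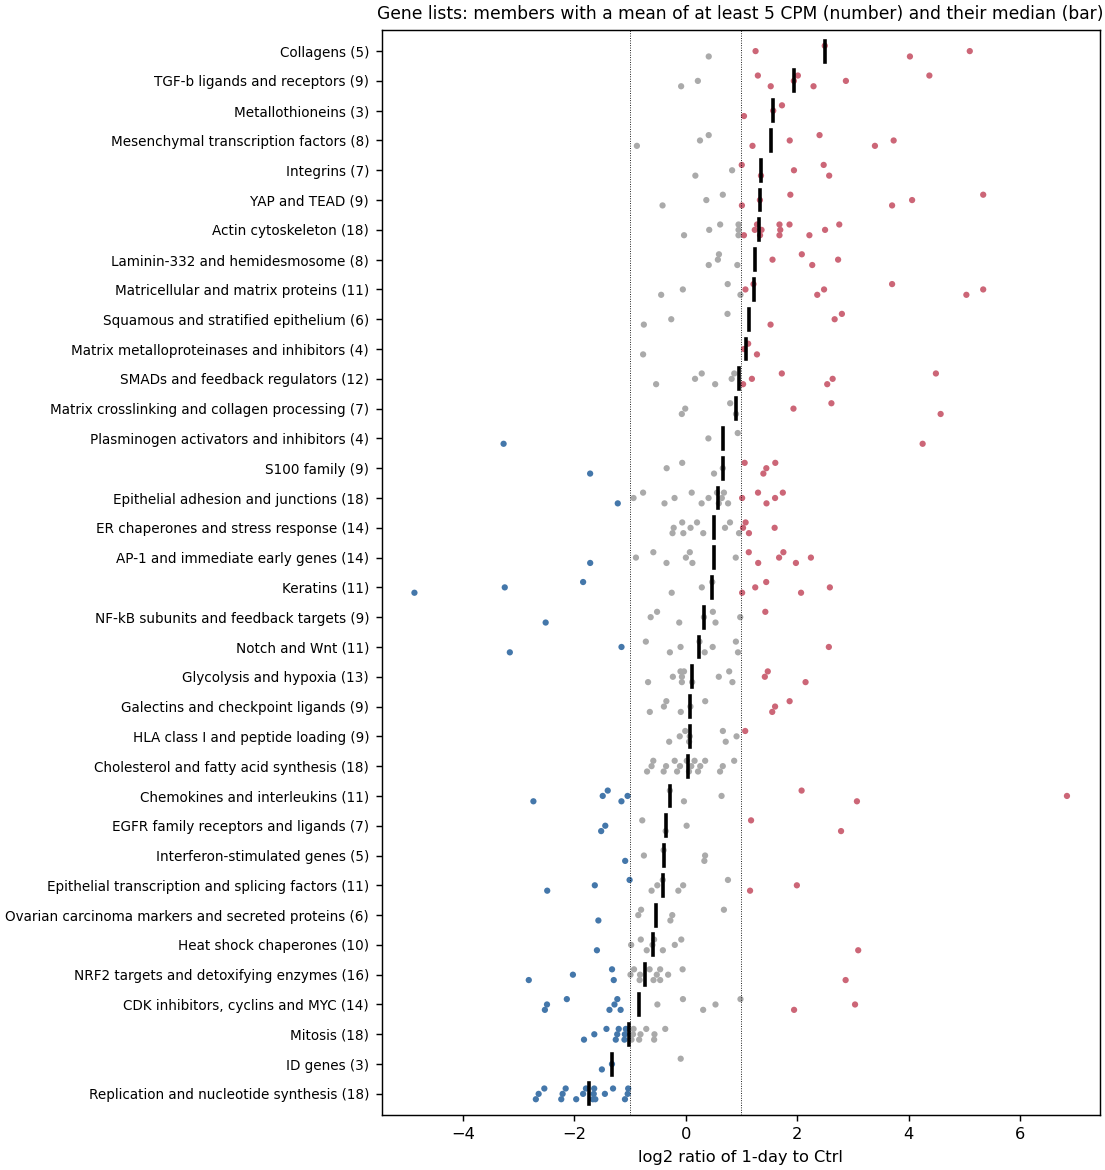
Log2 ratio of 1-day to Ctrl (x axis) of each counted member (point) of the gene lists with at least 3 counted members (rows, number in parentheses), with the list's median as a black bar and points at or past 1 and -1 in red and blue. The collagen, TGF-β ligand and receptor, metallothionein and mesenchymal transcription factor lists are at the top, with replication, ID and mitosis at the bottom. The keratin and chemokine lists hold genes far out on both sides. Lists of cell type markers are not drawn.

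Transcription factors of EMT moved in part. Of 14 mesenchymal factors 8 were counted, and 5 were higher, where 8.53% of all counted genes were higher. *SNAI2* and *ETS1* passed the level for counting only through their 1-day levels. *SNAI2*, a repressor of epithelial genes, had 3.8 CPM in Ctrl and 50.7 at 1-day (log2 ratio 3.73, 95% interval 3.46 to 4.02), *ETS1* had 2.53 CPM in Ctrl and 26.8 at 1-day (log2 ratio 3.40), and *SOX4* had 98 CPM in Ctrl and 518 at 1-day (log2 ratio 2.40). *HMGA2*, a chromatin protein that acts with SMADs, had 8.13 CPM in Ctrl and 29.7 at 1-day (log2 ratio 1.87), and *FOXC1* 5.07 CPM in Ctrl and 11.7 at 1-day. Within G1 the log2 ratios of *SNAI2*, *ETS1* and *SOX4* were 2.52, 2.36 and 1.53, and that of *FOXC1* fell short of the limit (0.84). The factors *ZEB1*, *ZEB2* and *TWIST1* had at most 0.243 CPM in either library, and *SNAI1* had 0.167 CPM in Ctrl and 1.06 at 1-day. Of 10 mesenchymal markers only *NT5E* was counted (19.2 CPM in Ctrl and 23.8 at 1-day). *VIM*, which encodes vimentin, had 0 UMIs in Ctrl and 0.243 CPM at 1-day, and *CDH2*, which encodes N-cadherin, had 0.3 and 0.212 CPM.

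Epithelial factors moved in both directions, where 8.53% of all counted genes were higher and 9.13% lower. Of 11 counted, the transcription factors *ELF3* (269 to 48 CPM, log2 ratio -2.48), *KLF5* (123 to 39.5 CPM, log2 ratio -1.63) and *GRHL1* (9.83 to 4.89 CPM, log2 ratio -1.01) were lower. The call of *GRHL1* was lost under median-of-ratios scaling and in G1. *KLF4* (8.13 to 32.5 CPM, log2 ratio 1.99) and *TP63* (65.6 to 146 CPM, log2 ratio 1.16), the latter a factor of basal cells, were higher, *TP63* with 0.97 in S and 0.70 in G2M cells. *GRHL2* and the splicing factors *ESRP1* and *ESRP2* had log2 ratios of -0.05, -0.41 and -0.13. Of the 18 genes of epithelial junctions, all counted, 5 were higher and 1 was lower. Over all counted genes 8.53% were higher and 9.13% lower. In the junction list 13 genes had log2 ratios above 0 (median 0.58). Within G1, S and G2M cells this median was 0.23, 0.41 and 0.24. *DSC2*, *JUP* and *DSP*, which encode parts of the desmosome, went from 7.23 to 24.2 CPM, from 159 to 436 CPM and from 53.9 to 133 CPM, respectively, and *CDH3*, which encodes P-cadherin, from 12.2 to 37.1 CPM. *TJP1*, a scaffold of tight junctions, went from 56.4 to 114 CPM. It fell short of the limit without mitochondrial and ribosomal protein UMIs, after thinning, as a mean over cells and in G2M. In G2M *DSP* fell short as well. *OCLN*, a membrane protein of tight junctions, was the lower one (24.1 to 10.3 CPM, log2 ratio -1.22). *CDH1*, which encodes E-cadherin, had 75.7 CPM in Ctrl and 119 at 1-day (log2 ratio 0.65), and 0.22 within G1.

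Keratins moved both ways. Of 11 counted, 5 were higher and 3 lower, where 8.53% of all counted genes were higher and 9.13% lower. *KRT17* (424 to 2546 CPM, log2 ratio 2.59), a keratin of basal and injured epithelium, and *KRT7* (346 to 942 CPM, log2 ratio 1.44), of glandular epithelium, were higher in every phase. *KRT14* was higher over all cells (7.97 to 33.5 CPM, log2 ratio 2.07) but had a log2 ratio of -0.06 within G1. *KRT18* and *KRT80* reached 1 over all cells but not within G1 (0.96 and 0.89) or S. *KRT18* also fell short in G2M, at the 10% mitochondrial limit and without mitochondrial and ribosomal protein UMIs. *KRT4* (14.6 to 0.486 CPM, log2 ratio -4.87) and *KRT13*, which pair in stratified mucosa, and *KRT15* (93.7 to 26.2 CPM, log2 ratio -1.84) were lower. Of 6 counted genes of stratified epithelium, *CRCT1* (289 to 1844 CPM, log2 ratio 2.67), *KLK6* (3.8 to 26.6 CPM, log2 ratio 2.80) and *SFN* (523 to 1504 CPM, log2 ratio 1.52) were higher. In the S100 family *S100A11* (1223 to 3215 CPM, log2 ratio 1.39) and *S100A3* (6.43 to 13.4 CPM, log2 ratio 1.06, short of the limit in G1, in S and after thinning) were higher beside *S100A2* and *S100A10*, *S100P* was lower (9.2 to 2.79 CPM, log2 ratio -1.72), and *S100A14* had 742 CPM in Ctrl and 585 at 1-day. The ovarian list of secreted proteins held 6 counted genes, of which *SPP1* alone was lower and 0 were higher.

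Receptors, ligands and immediate early genes of other pathways changed in both directions. The EGFR family list held 7 counted genes, 2 of them higher and 2 lower, where 8.53% of all counted genes were higher and 9.13% lower. *EGFR*, the epidermal growth factor receptor, had 33 CPM in Ctrl and 228 at 1-day (log2 ratio 2.79, 95% interval 2.69 to 2.89) and *ERBB2* 28.8 CPM in Ctrl and 64.9 at 1-day (log2 ratio 1.17), whereas the related *ERBB3* had 42 CPM in Ctrl and 15.4 at 1-day (log2 ratio -1.44) and the ligand gene *EREG* 65.1 CPM in Ctrl and 22.7 at 1-day (log2 ratio -1.52). *ERBB2* was short of the limit in S and G2M (0.99 and 0.94). The ligand genes *AREG* and *HBEGF* had log2 ratios of -0.78 and 0.02. Of 14 AP-1 and immediate early genes 6 were higher and 1 lower, and of the 6 *IER3* and *KLF6* fell short in G1 (0.97 and 0.48). *KLF10* (7.27 to 34.6 CPM, log2 ratio 2.25), known as an early gene of TGF-β, *JUN* (59.9 to 236 CPM, log2 ratio 1.98), *JUNB* (124 to 396 CPM, log2 ratio 1.68) and *FOSB* (5.73 to 19.4 CPM, log2 ratio 1.75) were higher, *FOS* had 19.7 CPM in Ctrl and 10.6 at 1-day (log2 ratio -0.89), and the phosphatase gene *DUSP1* was lower (15.2 to 4.61 CPM, log2 ratio -1.71). The Notch and Wnt list held 11 counted genes, of which 1 was higher, 2 were lower and 8 were not called (median log2 ratio 0.25). In it *WNT7A* was higher (18.7 to 111 CPM, log2 ratio 2.57), and *WNT5A* (19.6 to 2.19 CPM, log2 ratio -3.16) and *NOTCH3* (18.8 to 8.44 CPM, log2 ratio -1.15) were lower. *JAG1*, a Notch ligand, had 119 CPM in Ctrl and 222 at 1-day (log2 ratio 0.90).

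Inflammatory genes moved both ways. Of 19 chemokine and interleukin genes 11 were counted, 3 were higher and 5 lower. Beside *IL11*, the interleukins *IL18* (35.5 to 150.1 CPM, log2 ratio 2.08) and *IL32* (3.93 to 33.2 CPM, log2 ratio 3.07) were higher. The neutrophil chemoattractants *CXCL1* (114 to 43.4 CPM, log2 ratio -1.40), *CXCL2* (10.3 to 3.67 CPM, log2 ratio -1.49) and *CXCL3* (9.37 to 1.4 CPM, log2 ratio -2.73) were lower, together with *CXCL16* and the macrophage growth factor *CSF1*, whose call was lost under median-of-ratios scaling and in G2M. *CXCL8*, of the same family as *CXCL1*, had 87.3 CPM in Ctrl and 85.4 at 1-day (log2 ratio -0.03). *CXCL1* was 81.2 CPM at 3-day and 361 CPM at 7-day, above its Ctrl level in the last. Among 9 counted NF-κB genes 1 was higher and 1 lower, near the shares of 8.53% and 9.13% over all counted genes. The subunit gene *NFKB2* was the higher one (3.97 to 10.7 CPM, log2 ratio 1.43, 0.86 in G2M). *BIRC3*, a target that inhibits cell death, was the lower one (12.4 to 2.15 CPM, log2 ratio -2.51). Of 5 counted interferon-stimulated genes only *LY6E* was called, as lower (370.4 to 174 CPM, log2 ratio -1.09), and its log2 ratio was -0.82 in G1, -0.95 in S and -0.90 in G2M. Of 9 counted HLA class I and peptide loading genes 1 was higher and 0 lower, again near the shares over all counted genes. The higher one was *HLA-F* (3.33 to 7.01 CPM, log2 ratio 1.07, short of the limit after thinning and in G1). *HLA-B* and *HLA-C* had log2 ratios of -0.01 and 0.72, in genes whose alleles and near-identical copies can share reads. Of 9 counted galectins and checkpoint ligands 3 were higher. *LGALS3*, the β-galactoside-binding protein galectin-3, had 235 CPM in Ctrl and 715 at 1-day (log2 ratio 1.60, 95% interval 1.57 to 1.64) and then 221 CPM at 3-day and 87 CPM at 7-day. *LGALS1*, which encodes galectin-1, had 7.03 CPM in Ctrl and 20.7 at 1-day (log2 ratio 1.55, 0.78 in G1) and then 62.6 CPM at 3-day and 160.5 CPM at 7-day. *PVR*, a ligand of the receptor TIGIT, had 33.2 CPM in Ctrl and 121 at 1-day (log2 ratio 1.86), and *CD274*, which encodes PD-L1, had 0.333 and 0.243 CPM.

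Genes of detoxifying enzymes and other targets of the oxidative stress factor NRF2 had mostly lower levels. All 16 were counted, 4 were lower and 1 higher (median -0.73), where 9.13% of all counted genes were lower and 8.53% higher. In this list 15 had log2 ratios below 0, of which *SLC7A11* turned above 0 under median-of-ratios scaling. The summed level went from 12627 to 7011 CPM. *AKR1B10*, an aldo-keto reductase, had 2842 CPM in Ctrl and 699 at 1-day (log2 ratio -2.02, 95% interval -2.05 to -2.003), and then 353 CPM at 3-day and 261 CPM at 7-day. *GPX2*, a glutathione peroxidase, had 1467 CPM in Ctrl and 587 at 1-day (log2 ratio -1.32), and *SRXN1*, which repairs peroxiredoxins, 13.2 CPM in Ctrl and 5.4 at 1-day (log2 ratio -1.29, -0.72 in S). Beside these and *ALDH3A1*, *TXNRD1* (-0.99) and *GCLM* (-0.93) came close to the limit on the log2 scale. *AKR1C1*, *AKR1C2* and *AKR1C3*, near-identical genes whose reads could be shared, had log2 ratios between -0.65 and -0.52. *HMOX1*, which encodes heme oxygenase 1, went the other way and had 20.1 CPM in Ctrl and 147 at 1-day (log2 ratio 2.87, 95% interval 2.75 to 3.00). *SLC7A11*, the cystine transporter, had 342 CPM in Ctrl and 329 at 1-day. The median stayed between -0.81 and -0.71 within the called phases, and 77.6% of thinned 1-day cells lay below the 5th percentile of Ctrl cells in the list's sum.

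The metallothioneins counted, *MT2A*, *MT1X* (50.6 to 104 CPM, log2 ratio 1.05) and *MT1F* (14.6 to 43.4 CPM, log2 ratio 1.57), were all higher over all cells, with 0.96 for *MT1X* within G1, and share sequence with each other. Of 10 counted heat shock genes 1 was higher and 1 lower, near the shares of 8.53% and 9.13% over all counted genes. *HSPB1* was the higher one and *CRYAB*, another small heat shock protein, the lower one (12.6 to 4.16 CPM, log2 ratio -1.59). The chaperonin genes *HSPD1* and *HSPE1* had log2 ratios of -0.81 and -0.98, and *HSP90AA1* -0.60. Of 14 chaperone and stress genes of the endoplasmic reticulum 4 were higher and 0 lower, led by *HSPA5* (129.8 to 393 CPM, log2 ratio 1.60), which encodes BiP, and *CALR* (171 to 375 CPM, log2 ratio 1.13). The stress factors *ATF4* and *DDIT3* had log2 ratios of -0.22 and -0.06. *HERPUD1* was higher over all cells (1.03) but fell short of the limit in G1 (0.26), S and G2M, and without mitochondrial and ribosomal protein UMIs. Of 13 counted genes of glycolysis and hypoxia 3 were higher, *VEGFA* (8.67 to 38.5 CPM, log2 ratio 2.15), *PFKP* (33.4 to 89.4 CPM, log2 ratio 1.42) and *NDRG1* (9.6 to 26.7 CPM, log2 ratio 1.47), and *GAPDH* had 2567 CPM in Ctrl and 2406 at 1-day. In G1 *NDRG1* had a log2 ratio of 0.69. Of the 18 genes of cholesterol and fatty acid synthesis 0 were called, with log2 ratios from -0.69 for *LSS* to 0.87 for *SCD*.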

How the data were processed

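Single-cell RNA-seq (10x Genomics 3′ kit) was performed on OVCA420 cells, with 1 library per condition. The authors aligned reads to GRCh38 with Cell Ranger 2.0.1 and deposited UMI counts per gene and cell, without normalization. Only the leading part of each count matrix was read, and its incomplete last cell was dropped. Of 33694 genes, 32807 were matched by Ensembl identifier to GENCODE release 44. UMIs were summed per library to CPM. Log2 ratios had 0.5 counts added to each side and exact conditional 95% intervals, levels had exact Poisson intervals and shares Clopper-Pearson intervals, which cover counting error only. With no replicates, no test was made. A count of 0 was read as at most 3 counts.

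Genes were called at a log2 ratio of 1 or -1 with a mean of at least 5 CPM. Named genes were the 10 highest and 10 lowest log2 ratios (genes reaching 50 CPM in Ctrl or at 1-day), the 5 largest gains and losses of CPM, and members of 37 gene lists. Of these, 3 genes are not reported here and were left out of the lists. The 4 highest and 4 lowest of these with a RefSeq promoter entry (GRCh38.p14) outside chromosome 8 gave the sequences. The members and lists were chosen with earlier results of these data known. Mitochondrial limits removed 8 cells per library, and the limit of 200 genes removed 0. Scrublet (scanpy 1.11.5) marked 8 cells in each library, which were retained. Detection per cell was also computed after thinning cells to 18000 UMIs, which left out 89 Ctrl and 37 1-day cells. Phases were called in Ctrl and 1-day cells together, by scanpy scores of the S and G2M lists of Seurat 5.3.0. The SCTransform normalization, regression and tests over cells of the methods were not applied. Calculations were tested on simulated counts and run in Python 3.11.15 and R 4.3.3. Alternatives in scaling, filters, doublets, depth and phase are given in the closing section.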

Additional observations from a re-analysis of the deposited data

How the results depend on the processing

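The counts of 816 higher and 874 lower genes became 3811 and 3954 with no filter on low values (21409 genes) and 250 and 156 at a mean of at least 50 CPM (2584 genes). Lower genes numbered 524 in S cells alone and 496 in G2M cells alone, where 783 and 697 were higher; these were added after the phases had been seen. In every other alternative the counts were within 1.5 times, from 628 to 936 higher and from 641 to 1065 lower. The ends of these ranges came from asking both interval bounds to pass the limit (628 and 641), from median-of-ratios scaling (936 and 742) and from CPM without mitochondrial and ribosomal protein UMIs (1065 lower). Median-of-ratios scaling shifted log2 ratios by 0.080, and 16 of 413 named genes, *SLC7A11*, *MYC*, *CXCL8* and *GRHL2* among them, changed sign. Of 221 named genes past the limit, 7 fell short of it under that scaling, 7 without mitochondrial and ribosomal protein UMIs, 3 at 10% mitochondrial UMIs, 5 after thinning, 4 as a mean over cells, 0 without doublets, 42 in G1, 50 in S and 55 in G2M. Of the named genes past the limit, those that turned direction did so within a phase: *KRT14* in G1 (-0.0591), *AURKB* (0.31), *CCNE1* (0.0921), *CDC25A* (0.21), *CDK2* (0.0666), *FEN1* (0.11), *MCM7* (0.0514) and *PCNA* (0.0023) in S, and *KIF11* (0.13), *MKI67* (0.0497), *TK1* (0.26), *UHRF1* (0.0725) and the mitosis median (0.11) in G2M. Of all called genes, 3 higher and 13 lower ones had the opposite sign in G1. The cause was not tested. No paired analysis was possible because there was 1 library per side, so that no replicate could be left out. Depth limits genes near 0 UMIs in Ctrl, such as *MMP2*, whose ratios rest on the added count.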

Other observations

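Further genes outside the lists, chosen after their values were seen, extend what moved at 1-day. Among secreted and surface proteins, *F3*, which encodes tissue factor, had 14.2 CPM in Ctrl and 205 at 1-day (log2 ratio 3.85), *EDN1*, the precursor of endothelin 1, had 12.3 CPM in Ctrl and 94.4 at 1-day (log2 ratio 2.94), and *SERPINA1*, an inhibitor of neutrophil elastase, had 3.27 CPM in Ctrl and 76.2 at 1-day (log2 ratio 4.54). *FURIN*, a protease that cleaves the TGF-β precursor, had 10.3 CPM in Ctrl and 88.1 at 1-day (log2 ratio 3.09). *CDH6*, a cadherin, had 6.3 CPM in Ctrl and 136 at 1-day (log2 ratio 4.43, 2.95 within G1), and *EPHB2*, an ephrin receptor, had 0.9 CPM in Ctrl and 32.3 at 1-day (log2 ratio 5.14). *FSCN1*, which bundles actin in protrusions, had 23.5 CPM in Ctrl and 224 at 1-day (log2 ratio 3.25), and *SPHK1*, a sphingosine kinase, had 35.1 CPM in Ctrl and 238 at 1-day (log2 ratio 2.76). The transcriptional regulators *CITED4*, *RUNX1* and *VGLL3* went from 30.9 to 289.7 CPM, from 25.7 to 114 CPM and from 2.1 to 31.8 CPM, respectively, and the ligand gene *BMP2* had 7.9 CPM in Ctrl and 40.9 at 1-day. *GADD45B*, a stress gene, had 4.17 CPM in Ctrl and 67.5 at 1-day (log2 ratio 4.01).

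Among lower genes outside the lists, the carbonyl reductases *CBR1* (674 to 143 CPM, log2 ratio -2.24) and *CBR3* (216 to 57.6 CPM, log2 ratio -1.91), the prostaglandin reductase *PTGR1* (411 to 121 CPM, log2 ratio -1.76), the quinone reductase *NQO2* (63.1 to 20.1 CPM, log2 ratio -1.65) and *OSGIN1* (111 to 19.6 CPM, log2 ratio -2.49) were lower, and within G1 their log2 ratios ran from -2.53 to -1.58. Lower too were the water channel *AQP5* (150.4 to 30.3 CPM, log2 ratio -2.31), the sorting protein *MAL2* (704 to 176 CPM), the mucosal protein *AGR2* (316 to 100.3 CPM, log2 ratio -1.66), the adhesion protein *CEACAM6* (43.4 to 10.3 CPM, log2 ratio -2.08) and the transcription factor genes *FOXA2* (79.7 to 20.03 CPM, log2 ratio -1.99) and *NR2F2* (297 to 88.4 CPM, log2 ratio -1.75). The replication-linked histone gene *H4C3* went from 1540.3 to 421 CPM (log2 ratio -1.87), and its log2 ratio within G1 was -0.48.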
